A study of Sus scrofa with 12 samples.

Results

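Oocyte transcription factors are the germ-cell and maternal DNA-binding proteins that run the gene programme of the growing oocyte. The list taken here names 9 of them: NOBOX, FIGLA, SOHLH1, SOHLH2, LHX8, TBPL2, POU5F1, SALL4 and OTX2. They were chosen by name, with earlier results of these data known. Pig Ensembl identifiers were mapped to symbols, and 6 of the 9 were matched among the 31908 identifiers in the data. No identifier was matched to SOHLH1, POU5F1 or SALL4, which were not analysed here. NOBOX, FIGLA, LHX8, TBPL2 and OTX2 reached a mean of 1 FPKM over all libraries and were among the 7013 genes tested. SOHLH2 stayed under that level and is described by its values.

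The study profiled porcine oocytes during in vitro maturation (IVM) in 12 RNA-seq libraries, with 4 each at 0h, 22h and 46h. The series' design text calls these time points GV, Pre-MI and MII, and gives the middle one as 24h where the sample labels give 22h. Each library was made from 20 pooled oocytes by SMART-Seq2, which primes on the poly(A) tail with oligo-dT, and the number of animals behind each pool is not given in the sources used here. All groups shared the same source and handling: fully grown oocytes came from antral follicles of slaughterhouse ovaries of prepubertal gilts, were cultured inside their cumulus complexes in TCM199-based medium with porcine follicular fluid, EGF, PMSG and HCG (the 0h group without culture), and were stripped of cumulus cells with hyaluronidase. No genotype or drug treatment is named as separating the groups, and time in culture was the only factor in the labels. Exposure to the medium and its additions came with that time, as the 0h group was not cultured. Whether the stages were collected, amplified or sequenced together is not given in the sources used here. The values are FPKM, read fragments scaled to transcript length and to the mapped total of the library, so levels of different genes may be set side by side. Read counts were not part of the data, so the depth is unknown. Each SD is over the 4 libraries of a stage. The SEs, intervals and p-values of limma, a linear model per gene, use a spread shared by all 12 libraries unless stated otherwise. A wide spread at any stage therefore enters every comparison of that gene. Nothing in the labels says whether replicates came from separate collections of ovaries, so the p-values measure the spread between these samples.

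As background, NOBOX and LHX8 are homeobox proteins, and FIGLA, SOHLH1 and SOHLH2 are basic helix-loop-helix proteins that bind E-boxes as dimers. These factors are needed for primordial follicles to form and for oocytes to grow, and FIGLA switches on the zona pellucida genes. TBPL2 is a vertebrate paralogue of the TATA-binding protein that replaces it in growing mouse oocytes, and OTX2 is a homeobox protein whose RNA is stored in the oocyte for the embryo. A fully grown oocyte makes little new RNA, and during meiotic maturation the tails and the amounts of stored RNAs change. In pooled oocytes, fewer cells with an RNA and less of it per cell cannot be told apart, and with oligo-dT priming neither can a lost RNA and a shortened tail.

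The promoters of 3 of the factors are shown because basic helix-loop-helix members of the same list read E-boxes, and FIGLA, NOBOX and TBPL2 are those of the 5 tested factors with an E-box in the window. The windows run from 250 bases before to 50 bases after the gene start annotated by RefSeq, which was not checked here. They were read from the RefSeq genome Sscrofa11.1. They are written 5′ to 3′ on the gene's strand, with each E-box (CANNTG, which reads alike on both strands) in capitals. FIGLA is at chr3:71709580-71723760 on the plus strand with 6 exons, and its window is chr3:71709330-71709629. NOBOX is at chr9:113348363-113354504 on the plus strand with 6 exons, and its window is chr9:113348113-113348412. TBPL2 is at chr1:184745719-184772051 on the minus strand with 7 exons, and its window is chr1:184772002-184772301.
FIGLA: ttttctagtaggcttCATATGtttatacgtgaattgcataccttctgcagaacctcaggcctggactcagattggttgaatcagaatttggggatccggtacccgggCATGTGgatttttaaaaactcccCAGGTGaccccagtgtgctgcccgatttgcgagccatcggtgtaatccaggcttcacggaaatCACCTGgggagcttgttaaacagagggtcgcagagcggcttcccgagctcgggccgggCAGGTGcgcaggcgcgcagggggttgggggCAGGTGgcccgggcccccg
NOBOX: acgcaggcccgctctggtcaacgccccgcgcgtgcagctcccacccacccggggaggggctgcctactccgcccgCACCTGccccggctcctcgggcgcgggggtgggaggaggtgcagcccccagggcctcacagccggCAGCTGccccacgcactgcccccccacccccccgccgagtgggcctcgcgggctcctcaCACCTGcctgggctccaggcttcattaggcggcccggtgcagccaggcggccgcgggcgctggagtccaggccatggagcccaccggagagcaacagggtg
TBPL2: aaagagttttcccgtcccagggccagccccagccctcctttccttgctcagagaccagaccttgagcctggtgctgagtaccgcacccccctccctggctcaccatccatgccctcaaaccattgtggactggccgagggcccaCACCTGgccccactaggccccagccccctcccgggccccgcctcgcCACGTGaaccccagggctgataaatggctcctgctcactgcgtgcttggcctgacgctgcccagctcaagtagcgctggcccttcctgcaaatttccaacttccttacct
The FIGLA window held 6 E-boxes, which began at -235, -143, -120, -57, 2 and 32 counted from the first base of the gene as 1. Of 19534 protein-coding promoter windows, 67.8% held at least 1 E-box and 0.466% held at least 6. The NOBOX window held 3, at -175, -110 and -51, and the TBPL2 window held 2, at -106 and -60. LHX8 (chr6:138074673-138102025, minus strand, 8 exons) and OTX2 (chr1:186028575-186039026, minus strand, 4 exons) had none in theirs. FIGLA also had 1 match to the OTX site, written TAATCC, at -78. It had 1 match on the reverse strand to the TATA box, written TATAAA, at -229. The first occurs in 6.09% and the second in 10.9% of windows, and no other window of the 5 factors held either. The NOBOX element, written TAATTG, was in 6.73% of windows and in none of the 5. The homeodomain core, written TAATTA, was in 4.11% and in none of the 5. The POU octamer, written ATGCAAAT, was in 1.39% and in none of the 5, and all of these were read on both strands. A match describes letters and not a bound site. TBPL2 and OTX2 are neighbours at a distance on chromosome 1, with 1256523 bases between the genes.

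The 6 factors spanned a wide range of levels before culture. At 0h, mean FPKM was 694 ± 367 (SD, n = 4) for OTX2, 95.1 ± 31.7 for LHX8, 49.99 ± 13.1 for FIGLA, 9.26 ± 9.97 for NOBOX, 9.15 ± 2.85 for TBPL2 and 0.248 ± 0.287 for SOHLH2. By mean level, OTX2 ranked 135 of all identifiers at 0h, LHX8 787 and FIGLA 1259. The libraries of OTX2 lay above those of all the others, whereas LHX8 and FIGLA overlapped, as did NOBOX and TBPL2. The order changed during maturation. At 22h, OTX2 (155 ± 31.0) and LHX8 (98.8 ± 23.1) overlapped, and FIGLA (38.8 ± 7.75), TBPL2 (5.80 ± 0.496) and NOBOX (1.88 ± 1.24) followed without overlap. At 46h the libraries of the 5 factors were all apart, in the order OTX2 (155 ± 29.3), LHX8 (22.0 ± 2.29), TBPL2 (2.84 ± 0.741), FIGLA (1.33 ± 0.344) and NOBOX (0.235 ± 0.0507). FIGLA, which had been above TBPL2 in every 0h and 22h library, was below it in every 46h library.

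**Figure D1:**
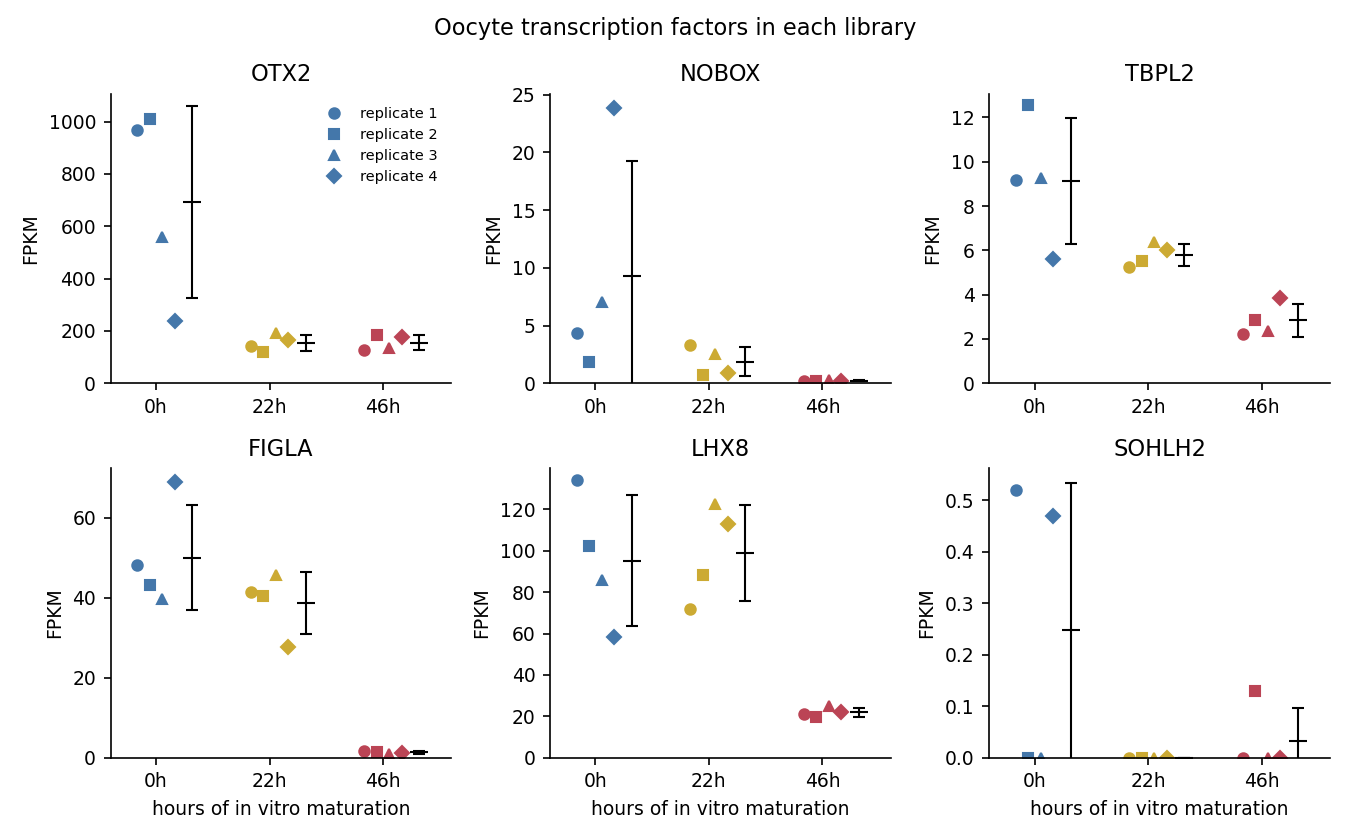
FPKM of each of the 6 matched oocyte transcription factors in the 12 libraries against hours of in vitro maturation; symbols mark the replicates, and the black bar gives the mean ± SD of 4 libraries, with the lower end of a bar not drawn below 0. OTX2 was lower in every 22h library than in any 0h library, FIGLA and LHX8 overlapped between 0h and 22h and were lowest at 46h, and NOBOX and TBPL2 overlapped between 0h and 22h and were lowest at 46h too.

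From 0h to 46h, all 5 tested factors fell. Under limma on log2(FPKM + 1), with thresholds of an adjusted p of 0.05 and a fold of 1.5, 5 of 5 passed as lower and 0 as higher, where 39.1% of all genes tested were called lower and 16.8% higher. After quantile normalization the factors were again 5 of 5 lower, and the shares of all genes were 27.2% lower and 40.3% higher. All 46h libraries lay below all 0h libraries for 5 of 5 factors, as they did for 39.2% of genes tested. The median change of the 5 was -2.01 on that log2 scale, beside -0.25 over all genes tested, and the latter was 0.34 after quantile normalization. The intervals in which they fell were not the same. From 0h to 22h, 2 of 5 were called lower (OTX2 and NOBOX) and 0 higher, against a background of 18.9% and 7.84% (the latter 12.3% without replicate 4 of 0h and 14.6% after quantile normalization), and the libraries did not overlap for 1 (OTX2), against 18.6%. From 22h to 46h, 3 of 5 were called lower (FIGLA, LHX8 and TBPL2) and 0 higher, against 32.6% and 9.87%, and the libraries did not overlap for 4 of them, NOBOX included, against 35.4%. After quantile normalization 2 of 5 were called lower in that interval, TBPL2 no longer among them, against 21.6% lower and 26.9% higher over all genes. With 5 factors, 1 call more or less moves such a share far.

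FIGLA, the activator of the zona pellucida genes, had the largest fall of the 5 on the log2(FPKM + 1) scale. At 0h its FPKM was 48.1, 43.3, 39.6 and 69.0 in replicates 1 to 4, at 22h 41.4, 40.4, 45.6 and 27.6, and at 46h 1.80, 1.38, 1.04 and 1.11. The 0h and 22h libraries overlapped, and every 46h library was far below both. The change to 22h was -0.35 (SE 0.206, limma adjusted p = 0.211, 95% interval -0.79 to 0.09) and did not pass. From 22h to 46h FIGLA fell by 4.08 (SE 0.206, limma adjusted p = 1.45e-09). From 0h to 46h it fell by 4.43 (limma adjusted p = 3.44e-10). By size this was fall number 162 among the 7013 genes. On the FPKM scale, 77.6% of the 0h mean was left at 22h and 2.67% at 46h. By that measure NOBOX was slightly lower at 46h, with 2.54% left. Without replicate 4 of 0h the order turned, with 3.05% left for FIGLA and 5.36% for NOBOX. After quantile normalization 4.78% was left for FIGLA.

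LHX8, a LIM-homeobox factor of early follicle formation, shared the timing but not the depth of the fall. Its FPKM was 134, 102, 85.7 and 58.5 at 0h, 71.6, 88.4, 122 and 113 at 22h, and 21.1, 19.6, 25.1 and 22.1 at 46h. The first pair of stages overlapped over most of their range, and the 46h libraries lay close together below both. The change to 22h was 0.09 (SE 0.237, limma adjusted p = 0.805, 95% interval -0.42 to 0.60). Leaving out replicate 4 of 0h gave -0.12 and leaving out replicate 3 of 22h gave -0.03, so that no direction was shown. From 22h to 46h LHX8 fell by 2.09 (SE 0.237, limma adjusted p = 5.52e-06), and 23.1% of the 0h mean was left. The ratio of LHX8 to FIGLA within a library lay between 0.847 and 2.79 at 0h, between 1.73 and 4.08 at 22h, and between 11.7 and 24.1 at 46h.

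OTX2, the most abundant of the factors, fell by 22h, and no further change was shown after that. Its FPKM was 968, 1011, 560 and 236 at 0h, 143, 121, 193 and 165 at 22h, and 127, 184, 133 and 177 at 46h. Every 0h library was above every later one, and the 22h and 46h libraries overlapped throughout. From 0h to 22h OTX2 fell by 1.96 (SE 0.366, limma adjusted p = 0.00118). The change from 22h to 46h was 0.00 (SE 0.366, limma adjusted p = 0.997, 95% interval -0.78 to 0.79), which leaves room for a change of either sign within that interval. The interval also takes in the spread of the 0h libraries, which was wider than that of the later stages. The mean at 22h and at 46h was 22.4% of that at 0h. The ratio of OTX2 to FIGLA within a library lay between 3.42 and 23.4 at 0h, between 2.98 and 5.97 at 22h, and between 70.7 and 159 at 46h.

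NOBOX, an oocyte homeobox factor, had 1 library far from the others at 0h. Its FPKM was 4.31, 1.80, 7.05 and 23.9 at 0h, 3.31, 0.750, 2.53 and 0.930 at 22h, and 0.220, 0.210, 0.310 and 0.200 at 46h. Replicate 4 of 0h was far above the others, the 0h and 22h libraries overlapped, and all 46h libraries were below all earlier ones. From 0h to 46h NOBOX fell by 2.58 (SE 0.497, limma adjusted p = 0.000395), and 2.54% of the 0h mean FPKM was left, or 5.36% without replicate 4 of 0h. After quantile normalization 5.61% was left. With a pseudocount of 0.1 in place of 1 the log2 change was -4.21. The fall to 22h was 1.46 (SE 0.497, limma adjusted p = 0.0372) and lost its call in 7 of 21 alternatives. Without replicate 4 of 0h the change was -0.88 (limma adjusted p = 0.0595), and the share of the 0h mean left at 22h moved from 20.3% to 42.9%. The call was also lost without replicate 3 of 0h (adjusted p = 0.0784), replicate 2 of 22h (0.108), replicate 4 of 22h (0.0992) or replicate 2 of 46h (0.0507). It was lost too without a filter on low values (0.107) and in the fit of only 0h and 22h (0.0897). The change from 22h to 46h was -1.12 (limma adjusted p = 0.0782) and passed in 6 of 21 alternatives, with an adjusted p between 0.00410 and 0.204 over all of them. In the fit of only 22h and 46h, which leaves out the 0h spread, it was -1.12 and passed (0.00410). With a pseudocount of 0.1 it was -2.33 (0.00710), with TPM -1.32 (0.0457) and with TPM without mitochondrially encoded genes -1.36 (0.0415). It passed without replicate 4 of 0h (0.00928) or replicate 2 of 0h (0.0344), which change only the shared estimate of the spread.

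TBPL2, the oocyte paralogue of the TATA-binding protein, declined in smaller steps. Its FPKM was 9.16, 12.6, 9.28 and 5.59 at 0h, 5.27, 5.52, 6.37 and 6.03 at 22h, and 2.23, 2.87, 2.38 and 3.87 at 46h. Replicate 4 of 0h lay among the 22h libraries, and the 46h libraries were below all others. From 0h to 46h TBPL2 fell by 1.38 (SE 0.207, limma adjusted p = 4.64e-05), and 31.0% of the 0h mean was left. After quantile normalization that change was -0.68 (limma adjusted p = 0.0242), and 54.1% was left. The change to 22h was -0.53 (SE 0.207, limma adjusted p = 0.0638), and without replicate 4 of 0h it was -0.73 and passed (adjusted p = 0.00657). The fall from 22h to 46h was 0.84 (limma adjusted p = 0.00410) and depended on the scaling. It was -0.59 (adjusted p = 0.0513) after median-of-ratios scaling and -0.33 (adjusted p = 0.282) after quantile normalization.

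SOHLH2, the basic helix-loop-helix partner of SOHLH1, was at the floor. It was listed at 0.520 and 0.470 FPKM in replicates 1 and 4 of 0h, at 0.13 in replicate 2 of 46h, and at 0 in the other 9 libraries. With so many values at 0, an exact two-sided permutation test could not go below p = 0.429 for 0h against 22h, 0.143 for 0h against 46h or 1 for 22h against 46h, and says nothing about SOHLH2. In the limma fit without a filter on low values, its change was -0.29 from 0h to 22h (adjusted p = 0.174), 0.04 from 22h to 46h (adjusted p = 0.887) and -0.25 from 0h to 46h (adjusted p = 0.171), and none passed.

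The difference between the intervals was itself tested, by a contrast chosen after the values were seen. It takes the change from 22h to 46h minus the change from 0h to 22h, and 21.0% of all genes tested were called for it in either direction, against 3 of the 5 factors. It was -3.73 for FIGLA (SE 0.356, limma adjusted p = 4.98e-06) and -2.18 for LHX8 (SE 0.411, limma adjusted p = 0.00170), both with a later fall. For OTX2 it was 1.97 (SE 0.633, limma adjusted p = 0.0404), an earlier fall, and this call was lost in 13 of 21 alternatives, with an adjusted p of up to 0.127. For TBPL2 it was -0.31 (limma adjusted p = 0.587, 95% interval -1.08 to 0.46) and for NOBOX 0.35 (limma adjusted p = 0.808, 95% interval -1.499 to 2.19), so that no difference between intervals was shown for these.

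**Figure D2:**
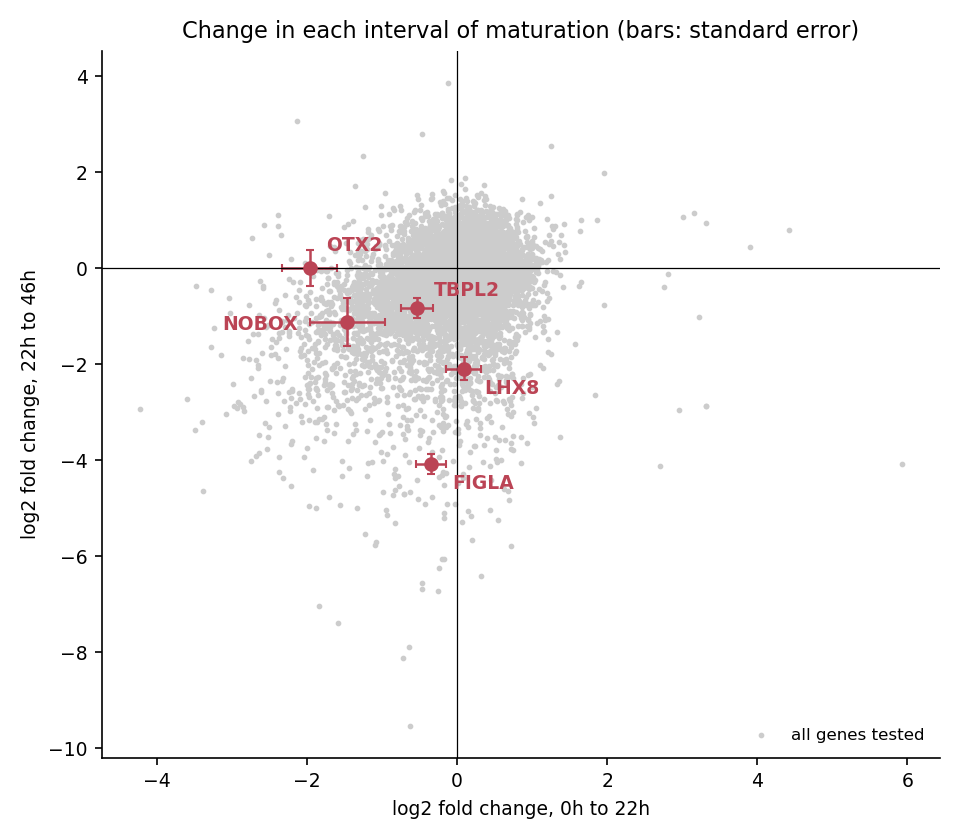
Log2 fold change of log2(FPKM + 1) from 22h to 46h against that from 0h to 22h; grey points are the 7013 genes tested, red points the 5 tested oocyte factors with standard errors. OTX2 sits to the left near the zero line of the second interval (-1.96 and 0.00), and FIGLA (-0.35 and -4.08) and LHX8 (0.09 and -2.09) sit below the zero line of the second interval near 0 for the first.

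Library 4 of 0h stood apart as a whole and for several of these genes. Its median correlation with the libraries of its stage was 0.946, where the other 0h libraries had 0.979 to 0.986. It held the most genes at 1 FPKM or more (7895) and the lowest summed oocyte markers (26673 FPKM) of all libraries. Its log2 value minus the mean of the other 0h libraries was 2.34 for NOBOX, at percentile 99.8 of all genes tested, and 0.65 for FIGLA. For OTX2 it was -1.79, at percentile 0.428, for LHX8 -0.84 and for TBPL2 -0.77, beside a median of 0.22 over all genes. Without it, the share of the 0h mean left at 46h was 5.36% for NOBOX, 3.05% for FIGLA, 20.5% for LHX8, 27.5% for TBPL2 and 18.3% for OTX2. All 5 factors still passed as lower from 0h to 46h without it, where 38.1% of all genes were called lower and 18.4% higher.

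Several whole-library values moved with time in culture. Mitochondrially encoded genes held 1.79% to 3.76% of the summed FPKM in the 0h libraries, 8.06% to 12.02% in those of 22h and 12.8% to 16.7% in those of 46h. With these genes removed and the rest rescaled to TPM, all 5 factors passed as lower from 0h to 46h. In that setting 38.4% of all genes were called lower and 19.7% higher. Genes with at least 1 FPKM numbered between 6939 and 7895 per library before culture, between 6682 and 7135 at 22h, and between 5819 and 6076 at 46h. The 10 matched oocyte markers had summed levels between 26673 and 37362 FPKM at 0h, between 34858 and 41205 at 22h, and between 34110 and 39933 at 46h. BTG4 made up much of that sum, with means of 15762, 15605 and 28330 FPKM, while 7 of the 10 markers were called lower from 22h to 46h (32.6% of all genes) and 6 of 10 from 0h to 46h (39.1%). The 17 matched cumulus and granulosa markers had summed levels between 47.1 and 89.4 FPKM at 0h, between 56.5 and 86.8 at 22h, and between 118 and 144 at 46h. VCAN made up most of the cumulus sum, with means of 58.3, 65.0 and 126 FPKM, while LHCGR, AMHR2 and INHA were at 0 in every library and 14 of the 17 stayed under 1 FPKM. The part of the rise in VCAN in these results was not tested. On other scalings, 2.49% to 4.78% of the 0h mean was left at 46h for FIGLA, 2.44% to 5.61% for NOBOX, 21.2% to 33.7% for LHX8, 28.6% to 54.1% for TBPL2 and 20.5% to 27.1% for OTX2.

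Of 18 genes listed as dimer and complex partners, 16 were matched and 9 tested. From 0h to 46h 2 were higher and 2 lower, with a median change of 0.09. Over all genes, 16.8% were higher and 39.1% lower. The list also holds TBP and TBPL1, which are paralogues of TBPL2, so TBPL1, among the higher genes, is a relative rather than a partner. TBPL1, the other TBP-like factor, rose from 808 ± 343 FPKM at 0h and 1204 ± 302 at 22h to 2189 ± 170 at 46h, a log2 change of 1.56 (limma adjusted p = 0.000448). TBPL1 stood far above TBPL2 in every library, and the ratio of the pair lay between 64.9 and 112 at 0h, between 148 and 245 at 22h, and between 614 and 977 at 46h, with no overlap between stages. GTF2B, the general factor TFIIB, rose by 1.27 (limma adjusted p = 0.000759), from 62.7 ± 22.4 to 146 ± 23.1 FPKM. GTF2A1L, the germ-cell form of the large TFIIA subunit, fell early, by 0.86 to 22h (limma adjusted p = 0.00829), from 51.5 ± 13.8 to 28.2 ± 9.02 FPKM. Its change to 46h was -0.89 (limma adjusted p = 0.00236), and it lost its call with median-of-ratios scaling (-0.57) and quantile normalization (-0.35). TAF4B, a gonad-enriched TFIID subunit, was at 5.17 ± 1.69, 5.25 ± 0.924 and 3.61 ± 0.703 FPKM and passed in no comparison.

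**Figure D3:**
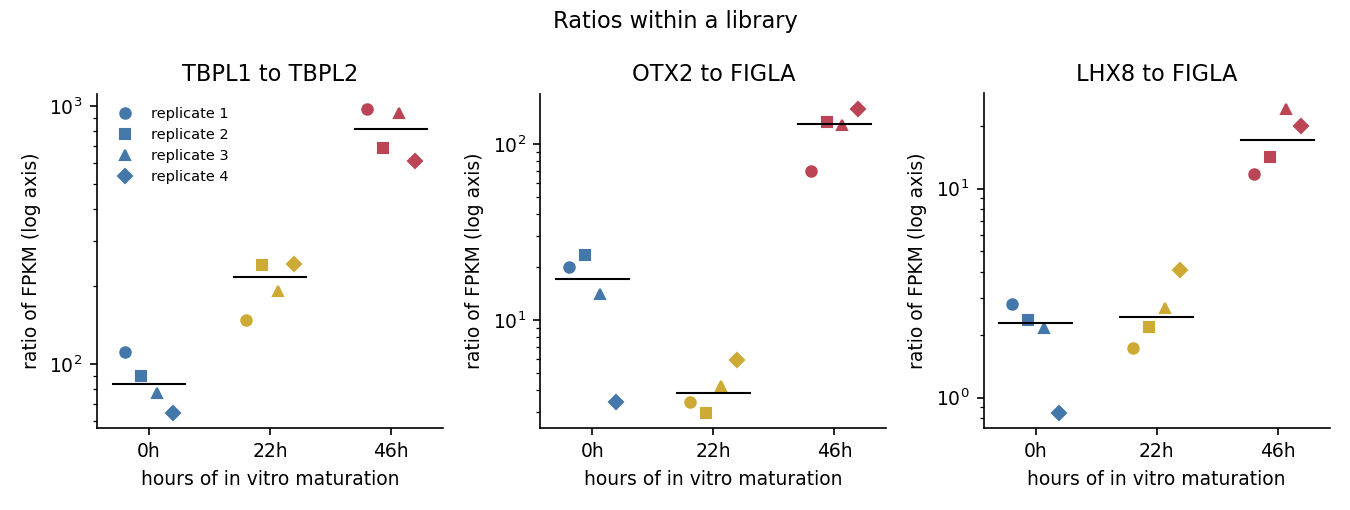
Ratio of FPKM within each library on a log axis for TBPL1 to TBPL2, OTX2 to FIGLA and LHX8 to FIGLA against hours of in vitro maturation; symbols mark the replicates and the bar gives the median of 4 libraries. The TBPL1 to TBPL2 ratio was higher at each later stage, with medians of 83.6, 217 and 812, and the other ratios were highest at 46h.

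The E-proteins that pair with FIGLA differed in level. TCF12 was at 8.42 ± 0.366 FPKM at 0h, 5.03 ± 1.04 at 22h and 3.06 ± 0.134 at 46h, and fell by 1.22 overall (limma adjusted p = 4.68e-06), a call lost after quantile normalization (-0.53), where the fold stayed under 1.5. The ratio of TCF12 to FIGLA lay between 0.126 and 0.206 at 0h, between 0.102 and 0.168 at 22h, and between 1.63 and 2.92 at 46h, so that TCF12 was below FIGLA in every 0h and 22h library and above it in every 46h library. TCF3 and TCF4 were under the filter and below FIGLA at each stage, with means of 0.390, 0.530 and 0.0475 FPKM for TCF3 and 0.133, 0.233 and 0.148 FPKM for TCF4. LDB1, the adaptor that binds LIM domains such as those of LHX8, was at 0.860 ± 0.346, 1.30 ± 0.613 and 1.02 ± 0.578 FPKM and passed in no comparison. NANOG was at 0 in every library, and TBP and SOX2 had no matched identifier and were not analysed here.

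Relatives of the factors by family were mostly low. All 14 listed were matched, 4 were tested, and 1 was higher and 0 lower from 0h to 46h, against the same shares of 16.8% and 39.1%. The riser was ISL1, a LIM-homeobox relative of LHX8, at 26.8 ± 5.38, 34.8 ± 6.47 and 52.2 ± 3.87 FPKM, a log2 change of 0.95 (limma adjusted p = 0.000312). SALL2, a zinc-finger relative of SALL4, fell by 0.73 from 22h to 46h (limma adjusted p = 0.0348), from 2.75 ± 0.834 to 1.24 ± 0.270 FPKM, and this call was lost in 9 of 21 alternatives. SALL1 was at 0 in all libraries and SALL3 between 0 and 0.05 FPKM. OTX1, the paralogue of OTX2, did not exceed 0.0900 FPKM in any library.

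Calls among other maternal and early embryo transcription factors were near the shares over all genes. Of 27 listed, 21 were matched and 10 tested, and from 0h to 46h 1 was higher and 3 lower, with a median change of -0.12, near the 16.8% and 39.1% of all genes. NFYC, a subunit of the CCAAT-binding factor NF-Y, fell by 2.43 (limma adjusted p = 4.06e-06), from 51.9 ± 10.98 FPKM at 0h and 35.0 ± 12.6 at 22h to 9.22 ± 4.11 at 46h. KLF5, a Krüppel-like zinc-finger factor, fell by 2.06 (limma adjusted p = 5.64e-06), from 7.55 ± 3.66 and 8.78 ± 1.57 to 0.955 ± 0.362 FPKM. STAT3, a cytokine-activated factor, rose by 0.89 to 22h (limma adjusted p = 0.0163), from 18.9 ± 6.50 to 34.3 ± 3.84 FPKM. Its change to 46h was 0.66 (limma adjusted p = 0.0338), and that call was lost in 8 of 22 alternatives.

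Most of the genes listed here as targets of NOBOX, FIGLA or LHX8 were called lower from 22h to 46h. Whether these factors act on them in pig oocytes was not tested. Of 24 listed, 18 were matched and 16 tested, and 6 of the matched are also on the list of oocyte markers. From 0h to 22h 1 was higher and 2 lower, from 22h to 46h 0 were higher and 13 lower, and from 0h to 46h 0 were higher and 10 lower, with median changes of 0.10, -1.37 and -1.30. Over all genes tested the medians were 0.00, -0.26 and -0.25, and the shares called lower were the 18.9%, 32.6% and 39.1% already given. The 2 that were lower by 22h, named after their values were seen, were DPPA5 and OOEP. DPPA5, an RNA-binding protein of germ and pluripotent cells, fell by 2.24 to 22h (limma adjusted p = 0.000578) and fell by 1.34 from 22h to 46h (limma adjusted p = 0.00884). OOEP, a subcortical maternal complex protein, fell by 0.65 to 22h (limma adjusted p = 0.0240), a call lost in 6 of 22 alternatives, and fell by 2.91 from 22h to 46h (limma adjusted p = 3.65e-08). The call of OOEP to 22h was lost without replicate 3 of 0h (-0.55), replicate 3 of 22h (-0.55) or replicate 4 of 22h (-0.57). KIT, H1-8 and OOSP2 passed in neither interval. ZP3, which encodes a zona pellucida protein, was at 2967 ± 1188 FPKM at 0h, 4949 ± 2307 at 22h and 95.5 ± 69.7 at 46h, and fell by 5.07 from 0h to 46h (limma adjusted p = 2.04e-07). ZP2 fell by 1.86 (limma adjusted p = 1.73e-06) and ZP4 fell by 1.40 (limma adjusted p = 0.00284), so that the zona genes did not share one depth of fall. ZP4 remained at 2114 ± 965 FPKM at 46h and ZP2 at 532 ± 170. ZP1 had no matched identifier and was not analysed here. GDF9, an oocyte-secreted growth factor, was at 984 ± 548, 866 ± 464 and 37.8 ± 3.73 FPKM and fell by 4.42 (limma adjusted p = 2.71e-06). BMP15, its partner growth factor, was at 3077 ± 1680, 5614 ± 1974 and 2329 ± 358 FPKM. It rose by 0.95 to 22h (limma adjusted p = 0.0315), a call lost in 8 of 22 alternatives, and fell by 1.22 from 22h to 46h (limma adjusted p = 0.00505). KIT, the receptor of the KIT ligand from granulosa cells, was at 7.02 ± 4.94, 10.7 ± 2.82 and 6.50 ± 2.40 FPKM and passed in no comparison.

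**Figure D4:**
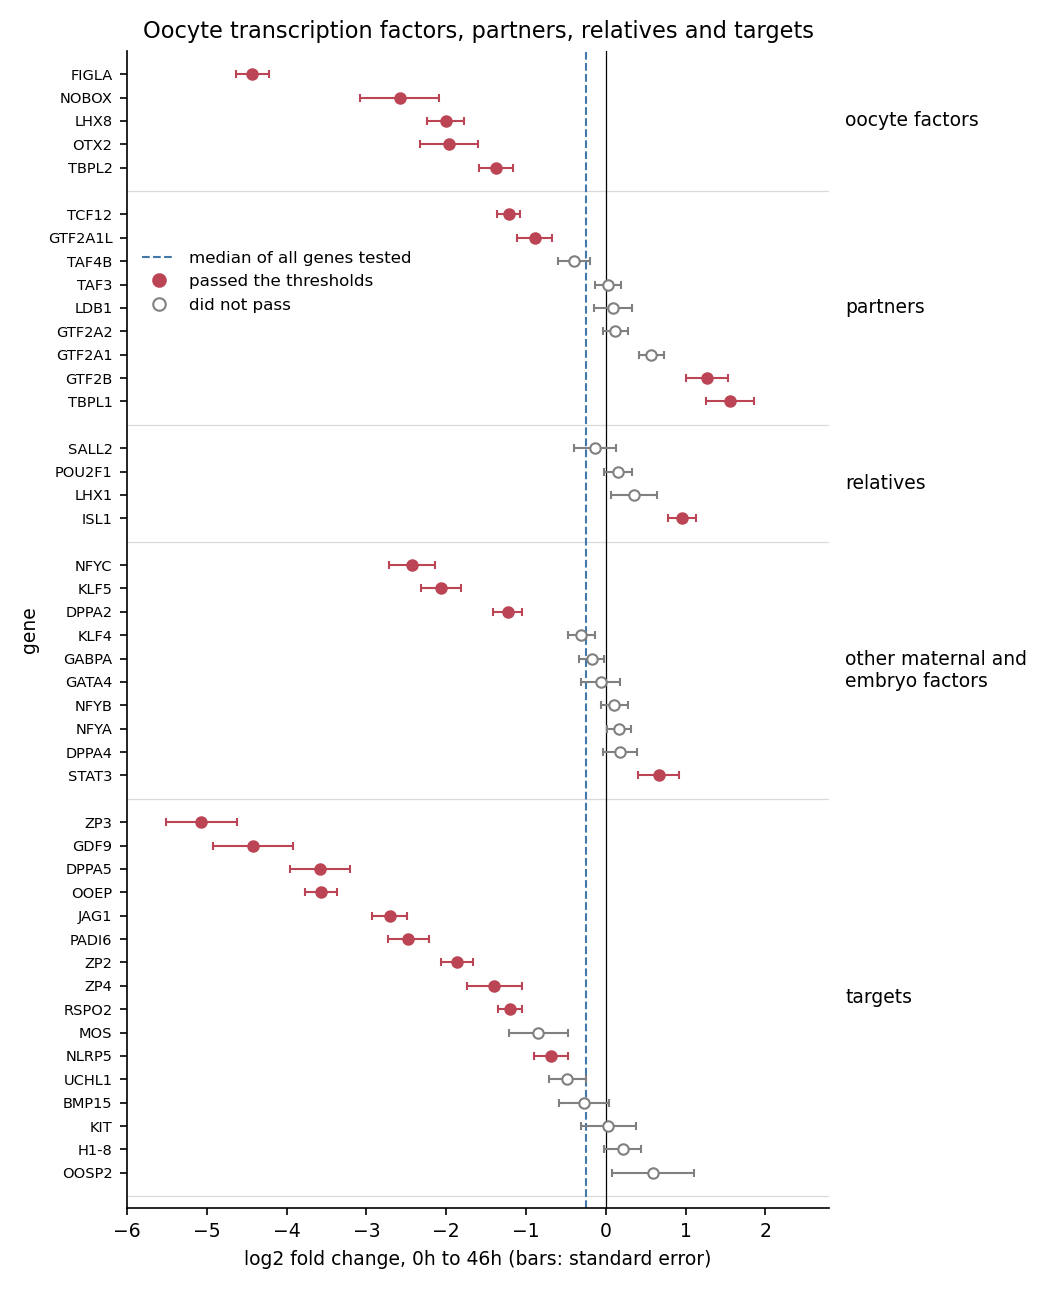
Log2 fold change of log2(FPKM + 1) from 0h to 46h with its standard error for every tested gene of the 5 lists; filled points passed the thresholds, and the dashed line is the median of all genes tested (-0.25). All 5 oocyte factors and 10 of the 16 listed targets passed as lower. The 9 genes of the partner list, the paralogue TBPL1 among them, divided into 2 higher, 2 lower and 5 that did not pass.

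The genes whose pattern was closest to each factor were found by Pearson's r of log2(FPKM + 1) over the 12 libraries, among the named genes tested. The 12 points share their libraries and fall into 3 stages, so r may largely describe the stage pattern. It also takes in the spread within stages, which for NOBOX was wide at 0h (1.80 to 23.9 FPKM). No r without replicate 4 of 0h is given here. LHX8 was closest to GDF9 (r = 0.988), NUSAP1 (0.986) and CCNB2 (0.984), and the last of these, cyclin B2, was at 435, 458 and 24.7 FPKM in the 3 stages. FIGLA was closest to MIX23 (r = 0.995), LSG1 (0.993) and PARK7 (0.993). MIX23 passed from 1542 and 1000 FPKM at 0h and 22h to 3.10 at 46h, a deeper drop than that of FIGLA itself on the FPKM scale. OTX2 was closest to PRIM2 (r = 0.969), GLO1 (0.966) and CSTF1 (0.962), each with a larger step before 22h than after, as in CSTF1 with 162, 56.6 and 55.9 FPKM. TBPL2 was closest to ARV1 (r = 0.972), ATP5F1A (0.969) and ZBED5 (0.966), and ARV1 stepped down from 27.4 to 14.7 and 7.11 FPKM. NOBOX was closest to SMPD2 (r = 0.992), EFNB1 (0.989) and LONP1 (0.987), which were likewise low, at 3.02, 3.97 and 4.01 FPKM at 0h.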

How the data were processed

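Poly(A)-primed RNA was measured in 12 libraries of 20 oocytes, 4 per stage, grouped by the time in maturation medium in the sample labels. The authors deposited FPKM values per Ensembl gene, made with STAR against Sscrofa11 and RSEM. The submitters' processing notes also list FastQC, Trim Galore and HTSeq. No counts were used here, so the depth is unknown, and the 2 decimals of the files do not give whole reads back. Symbols came from the reference gene names for 15029 of the 31908 identifiers and from the study's gene table for 172 more, and 14275 identifiers were at 0 in all libraries.

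Genes whose 12 values averaged 1 FPKM or more entered limma 3.58.1 as log2(FPKM + 1) (lmFit and eBayes with a trend, in R 4.3.3) on all 12 libraries with stage as the factor. Two-sided p-values were adjusted over 7013 genes by Benjamini and Hochberg's method, and a gene was called at an adjusted p under 0.05 and a fold over 1.5. Every fold change is on the log2(FPKM + 1) scale, which understates low genes. The factors and lists were chosen with earlier results of these data known. Genes named besides the 9 factors were the largest called rise and fall of each list from 0h to 46h (up to 4 a list), a set of partners, relatives and targets fixed by name, and the 3 genes closest to each factor. MIX23, CCNB2, CSTF1 and ARV1 were picked from the last for their levels after these were seen, and so were DPPA5, OOEP, H1-8 and OOSP2 from the targets, TCF4 from the partners, and BTG4 and VCAN as the main oocyte and cumulus markers. The intervals given are limma's 95% intervals. Promoter windows and gene positions are from RefSeq on Sscrofa11.1, read with pysam 0.24.0, and no promoter value enters a test. Alternatives were a pseudocount of 0.1, no filter, a filter of 5 FPKM, quantile normalization, scaling by median of ratios, TPM (also after removing genes of the mitochondrial genome), eBayes without trend, a replicate block, a fit of only the stages compared and leaving out each library. The fit was tested on simulated data, of which no value is given here.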

Additional observations from a re-analysis of the deposited data

Results flagged for a closer look

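Of 76 groups of 4 libraries checked, 3 held a library set apart from the other libraries of its stage by more than the critical gap of Dixon's test, where chance alone flags about 1 in 20 groups. ZP3 was at 199 FPKM in replicate 3 of 46h, with the others between 51.5 and 71.7. SOHLH2 was at 0.13 FPKM in replicate 2 of 46h and OTX1 at 0.04 FPKM in replicate 2 of 0h, each with the other libraries of that stage at 0, where any value above 0 is set apart by this rule and the rate of 1 in 20 does not apply.

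The change from 22h to 46h differed from that from 0h to 22h, by a test of the difference itself under limma, for FIGLA (-3.73), LHX8 (-2.18) and OTX2 (1.97). The FIGLA and LHX8 calls held in all 21 alternatives run for them, and the OTX2 call in 8 of 21.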

How the results depend on the processing

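All 5 factors kept a called fall from 0h to 46h in every alternative run for them, with log2 changes of -5.12 to -3.84 for FIGLA, -4.21 to -1.997 for NOBOX, -2.22 to -1.48 for LHX8, -2.41 to -1.64 for OTX2 and -1.63 to -0.68 for TBPL2 (NOBOX was outside the filter of 5 FPKM). The number of factors called lower from 0h to 22h was 1 of 6 without a filter, against 7.361% of all genes tested. It was 1 of 4 with the filter of 5 FPKM, against 19.353%. In the fit of only those stages it was 1 of 5, against 16.997%. When single libraries were left out it was 1 to 2 of 5, against 16.141% to 19.564%. With the filter of 5 FPKM, which tests fewer genes, 2546 genes were called from 0h to 46h in place of 3922. Changes that were not called turned sign: the interval difference of NOBOX was -0.45 with a pseudocount of 0.1 and -0.24 to 0.81 over left-out libraries, that of TBPL2 was 0.031 after quantile normalization, the change of LHX8 from 0h to 22h was -0.12 to 0.27 over left-out libraries, and that of OTX2 from 22h to 46h was -0.087 with TPM and -0.11 to 0.11 over left-out libraries. The cause was not tested. The share of higher genes among those called from 0h to 46h was 30.1% as deposited, 44.1% after median-of-ratios scaling, 59.7% after quantile normalization, 25.6% with TPM and 33.9% with TPM without mitochondrially encoded genes. From 22h to 46h it was 23.3% as deposited, 42.2% after median-of-ratios scaling and 55.4% after quantile normalization, and from 0h to 22h it was 29.4% as deposited, 48.5% after quantile normalization and 39.5% with TPM without mitochondrially encoded genes. The median change of all genes from 0h to 46h was -0.25 as deposited, 0.00 after median-of-ratios scaling, 0.34 after quantile normalization and -0.35 with TPM. With a replicate block, 1801, 2933 and 3894 genes and 2, 3 and 5 factors were called in the 3 comparisons. The OTX2 interval difference lost its call there (adjusted p = 0.0656). The labels do not say whether replicates of the same number were paired. The correlation of their deviations from the stage means was -0.466 to 0.381 over 12 pairs, beside -0.428 to 0.533 for different numbers. Between 22h and 46h it was 0.00884 to 0.381 for the same number and -0.405 to 0.170 for different numbers. Between 0h and the later stages it was -0.466 to 0.0845 for the same number.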
